A study of Mus musculus with 24 samples.

Results

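The genes described here carry glucose into the cell and break it down to lactate. They are Slc2a1 and Slc2a3, which encode the glucose transporters GLUT1 and GLUT3, and 8 genes of the glycolytic steps, Hk2, Gpi1, Aldoa, Tpi1, Pgam1, Eno1, Pkm and Ldha. The 10 were chosen by symbol and were taken by Ensembl identifier from the 55414 genes of the count table. All 10 passed the filter on low counts, which left 10566 genes for testing.

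The study compared conventional CD4+ T cells (Tconv, CD4+ CD25-) of conplastic mice, which carry the same C57BL/6J nuclear genome and differ in their mitochondrial DNA. The mtDNA B6 mice, labelled WT, hold the mtDNA of C57BL/6J, and the mtDNA NZB mice hold the mtDNA of the NZB strain. Their cells are called B6 and NZB cells here, by haplotype alone. Splenic cells were isolated on magnetic columns and were left resting (labelled RES) or were activated (ACT) for 72 h with CD3/CD28 beads and, as the methods read, IL-2, a growth factor of T cells. The beads stimulate T cells through their antigen receptor and CD28. The mice were mostly males of 2 to 3 months, and no age is given for a single library. Each of the 4 combinations of haplotype and state had 6 libraries, and the comparisons ask how activation changed these genes and whether the haplotypes differed at rest, after activation or in their response. The labels do not say which libraries came from separate mice or shared one, so the p-values measure the spread between these libraries, which may be technical in part.

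Glucose enters T cells through facilitative transporters of the GLUT family, is trapped as glucose 6-phosphate by hexokinase and is converted in further steps to pyruvate, which lactate dehydrogenase can reduce to lactate. T cells that are stimulated through their receptor are known to take up more glucose and to release more lactate even when oxygen is present. The transcription factors HIF-1α and MYC are known to act on many genes of this pathway, and both bind DNA at short sequences with the core ACGTG or its relatives.

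Libraries held from 51409 to 6449395 UMI counts, where a UMI marks 1 captured RNA molecule, with medians of 3308792 and 3437116 in resting and activated B6 cells and of 2898287 and 3179942 in resting and activated NZB cells. A single count in the smallest library, resting NZB replicate 2, was worth 19.5 CPM before scaling, CPM being the normalised count relative to the library total, so a gene at 0 there may lie anywhere up to 58.4 CPM, the value of 3 counts. Group means tabulated by the study leave out activated NZB replicate 6 and resting NZB replicates 2 and 6, and values without these rest on 21 libraries. T cell markers were present in every library, with a summed level of 8 genes between 3644 and 5917 CPM. Il2ra, which encodes the receptor chain CD25, rose with activation by 4.68 (B6) and 5.00 (NZB) on the log2 scale. Of the 6 activation markers 5 rose in both haplotypes, and Cd69, a marker known to appear early after stimulation, fell (−3.73 in B6 and −3.62 in NZB cells). RNA of other cells was present at rest and, for some marker lists, after activation. Of 5 neutrophil markers, 0 were at 0 in all libraries, and their summed level ran from 251 to 17740 CPM in the resting libraries and from 1.47 to 158 CPM in the activated ones. The corresponding sums for 6 erythroid markers were 90.4 to 7173 CPM and 16.2 to 172 CPM, and for 6 myeloid markers 474 to 3050 CPM and 15.2 to 114 CPM. Sums of 4 B cell markers had medians of 401 and 529 CPM at rest and 502 and 445 CPM after activation (B6 and NZB). Sums of 2 CD8 T cell markers had medians of 68.6 and 51.9 CPM at rest and 277 and 164.5 CPM after activation.

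In the GRCm39 assembly the transporter genes lie at chr4:118965908-118996365 on the plus strand (Slc2a1) and chr6:122704768-122778599 on the minus strand (Slc2a3). On the minus strand lie also Hk2 at chr6:82699740-82751469, Gpi1 at chr7:33900755-33929780, Aldoa at chr7:126393822-126399923 and Tpi1 at chr6:124787549-124791273. On the plus strand lie Pgam1 at chr19:41900341-41907104, Eno1 at chr4:150321073-150337027, Pkm at chr9:59563364-59586663 and Ldha at chr7:46490899-46505061. All are protein-coding genes, and the counts come from the last 1000 bases of their transcripts. The window around each start, from 250 bases before to 50 after the start of the canonical transcript, was searched on both strands for ACGTG, for the related GCGTG and for CACGTG, which contains ACGTG on each strand. ACGTG was found in 5 of the 10 promoters (Slc2a1, Hk2, Aldoa, Pgam1 and Ldha) and in 20.7% of 21770 protein-coding promoters. GCGTG was found in 4 (Slc2a1, Pgam1, Eno1 and Ldha) and in 37.0% of all promoters, and either of the pair in 6 of the 10 and in 48.0% of all. CACGTG was found in the Ldha promoter, at 2 places, in none of the other 9 and in 7.81% of all promoters. The windows of Slc2a3, Gpi1, Tpi1 and Pkm held none of these motifs. A match describes the letters and is not evidence of binding. The sequences printed here show 1 ACGTG match each of a transporter, of Hk2, the first enzyme among the members, and of Aldoa, and both CACGTG matches of Ldha, the last enzyme, with the match in capitals (in Ldha the 6 letters of CACGTG), each read 5′ to 3′ along the gene's strand, where CACGT is the same core on the opposite strand.
Slc2a1, chr4:118965895-118965921, plus strand: tcccgccccggACGTGctccccaggcc
Hk2, chr6:82751472-82751498, minus strand: atgagcacatcCACGTcactgtccggg
Aldoa, chr7:126398537-126398563, minus strand: gtggctcgagtCACGTcctagcggggc
Ldha, chr7:46495072-46495098, plus strand: gtgtcgcagcaCACGTGgagccactct
Ldha, chr7:46495169-46495195, plus strand: ggcccagcctaCACGTGggttcccgca

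Most of the 10 genes rose on activation, with larger changes from Aldoa onward than for the transporters. In B6 cells 9 of the 10 genes rose and 0 fell at an adjusted p of at most 0.05 (quasi-likelihood test of edgeR, Benjamini-Hochberg adjusted across the genes tested), where 22.4% of all genes tested rose. In NZB cells 7 of the 10 rose and 0 fell, where 25.2% of all genes tested rose. The median log2 fold change of the 10 was 1.78 in B6 cells and 1.69 in NZB cells, beside −0.03 and −0.06 over all genes tested. In both haplotypes 6 genes rose by at least 1 on the log2 scale, namely Aldoa, Tpi1, Pgam1, Eno1, Pkm and Ldha, where 7.06% (B6) and 9.46% (NZB) of all genes did so. All resting libraries lay below all activated libraries for 7 genes in B6 cells and for 6 in NZB cells, as they did for 15.4% and 11.9% of all genes tested. In bulk samples a larger share of cells that express a gene cannot be told apart from more RNA per cell.

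**Figure D1:**
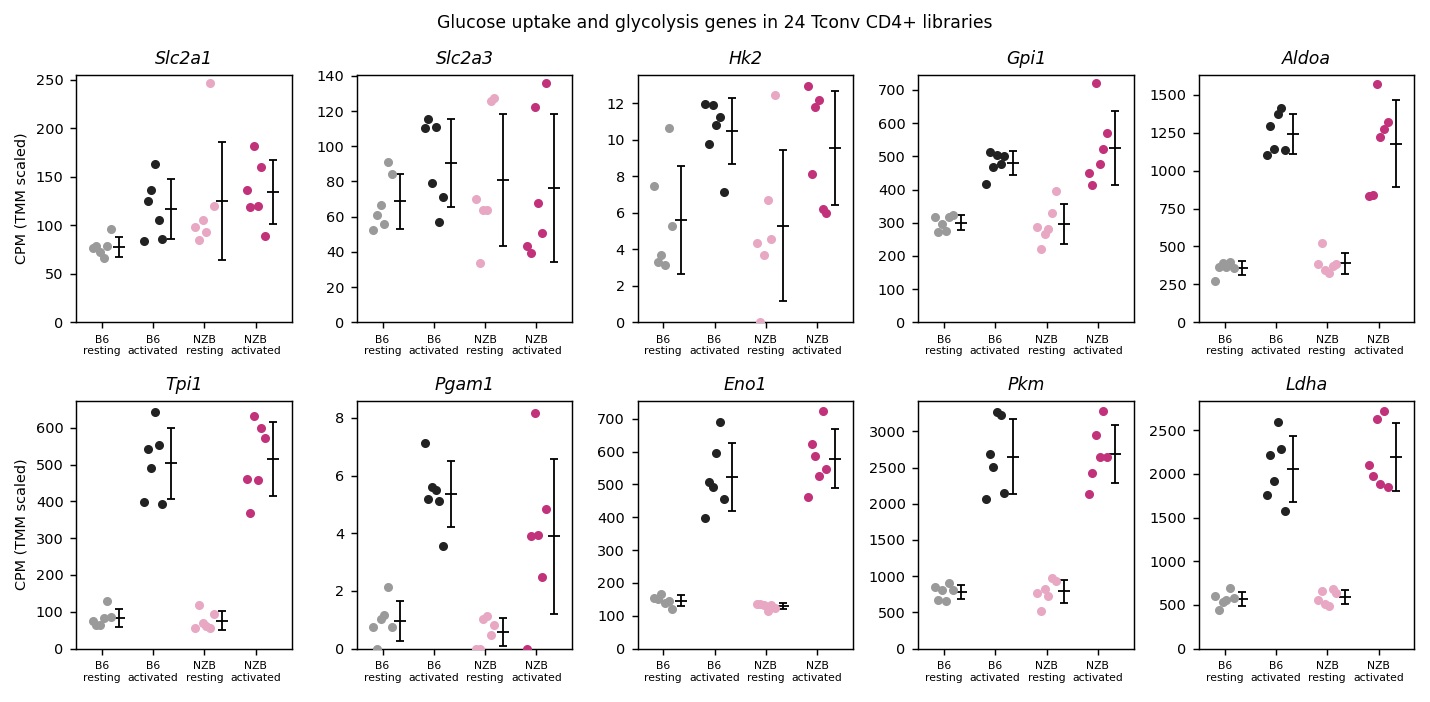
Normalised counts (CPM, vertical axis from 0) of the 10 genes in each of 24 libraries, by haplotype and state, where points are libraries and the bars give the mean and SD of 6. For Gpi1, Aldoa, Tpi1, Eno1, Pkm and Ldha every activated library sits above every resting library of its haplotype, whereas the groups overlap for Slc2a1, Slc2a3 and Hk2.

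The 10 genes together held from 0.193% to 0.286% of the UMI counts of the resting B6 libraries (median 0.223%) and from 0.663% to 0.984% of the activated ones (median 0.799%). In NZB cells the shares were 0.211% to 0.265% at rest (median 0.233%) and 0.693% to 0.902% after activation (median 0.804%). Resting and activated libraries did not overlap in either haplotype, while the haplotypes overlapped within each state. The means were 0.230% ± 0.0322 and 0.807% ± 0.129 (SD, n = 6) in resting and activated B6 cells, and 0.237% ± 0.0218 and 0.797% ± 0.0809 (SD, n = 6) in NZB cells.

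**Figure D2:**
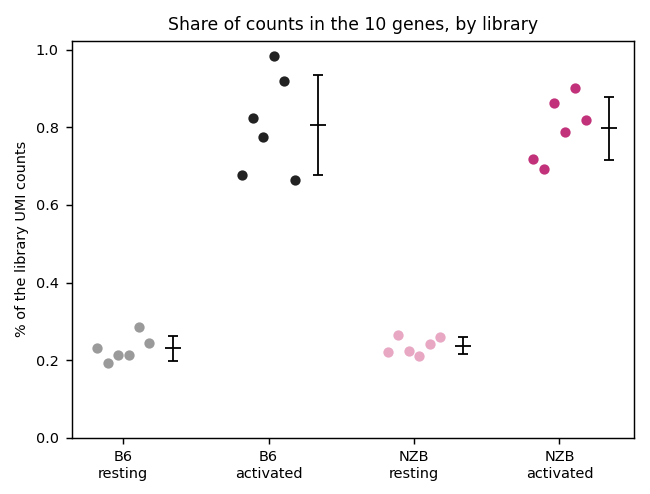
Percent of each library's UMI counts that fell on the 10 genes (vertical axis from 0), by haplotype and state, with points for libraries and bars for the mean and SD of 6. The resting libraries lie between 0.193% and 0.286% and the activated ones between 0.663% and 0.984%.

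Slc2a1 encodes GLUT1, the transporter whose surface level is known to increase in stimulated T cells. It ranged from 65.8 to 95.9 CPM (median 77.5) in resting and from 84.0 to 163 CPM (median 115) in activated B6 cells. In NZB cells it ranged from 84.7 to 246 CPM (median 102) at rest and from 88.5 to 181 CPM (median 128) after activation. Resting and activated libraries overlapped in both haplotypes, and the highest of all 24 libraries was a resting one, NZB replicate 5 at 246 CPM. Slc2a1 rose on activation in B6 cells by 0.58 on the log2 scale (SE 0.21, adjusted p = 0.0266, edgeR). In NZB cells its log2 fold change was 0.04 (SE 0.22, adjusted p = 0.887, edgeR), and without resting replicate 5 it was 0.37 (adjusted p = 0.0842). The call in B6 cells was lost without resting replicate 4 (adjusted p = 0.0555, edgeR) and without activated replicate 3 or 4 (adjusted p = 0.0554 and 0.0868). It was lost also when libraries with the same number in their labels were fitted as blocks (0.42, adjusted p = 0.0883, edgeR). The difference between the responses, NZB minus B6, was −0.54 (95% interval −1.17 to 0.09, adjusted p = 0.421, edgeR), and −0.21 without that resting replicate 5.

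At rest Slc2a1 was the member with the lowest p between the haplotypes. The resting NZB libraries other than replicate 5 lay between 84.7 and 120 CPM, and the B6 libraries between 65.8 and 95.9 CPM, so the groups overlapped. The log2 difference, NZB minus B6, was 0.74 (95% interval 0.28 to 1.19, unadjusted p = 0.00249 and adjusted p = 0.0626, edgeR), a fold of 1.67 that missed the cut-off. Over the 21 libraries it was 0.79 (adjusted p = 0.0428, edgeR) and passed, where 6.11% of all genes tested did. It passed also without resting NZB replicate 1, 3 or 4 (adjusted p = 0.0367, 0.0449 and 0.0377, edgeR), and without replicate 5 it was 0.41 (95% interval 0.04 to 0.77, adjusted p = 0.363). The neutrophil, erythroid and myeloid sums of replicate 5 were 251, 239 and 607 CPM, where the resting libraries ran from 251 to 17740, from 90.4 to 7173 and from 474 to 3050 CPM. Its sums of 6 activation markers and of 3 Treg markers, 496.8 and 279.5 CPM, were the highest of the 12 resting libraries. The others lay at 263 to 491 and 131 to 228.5 CPM, the 491 CPM being that of the smallest library. The activation sum includes Cd69, which fell on activation, and the 3 Treg markers did not move together. The part of these sums in the Slc2a1 value was not tested.

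**Figure D3:**
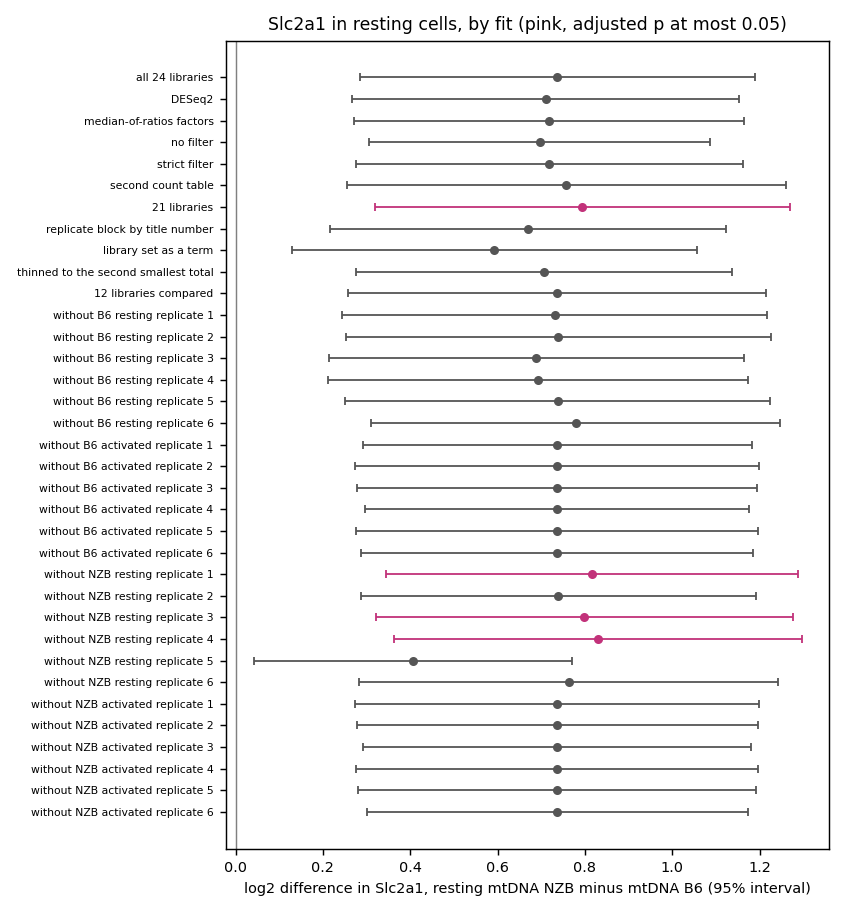
Log2 difference in Slc2a1 between resting NZB and B6 cells (horizontal axis, with 95% intervals) in each fit, with all 24 libraries in the top line, the other analyses under it and the fits without 1 library at the bottom. The value stays between 0.59 and 0.83 in all but the fit without resting NZB replicate 5, where it is 0.41, and pink marks the 4 fits with an adjusted p of at most 0.05.

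Slc2a3 encodes GLUT3, a transporter of high glucose affinity. It ranged from 52.4 to 91.3 CPM (median 64.0) in resting and from 56.8 to 115 CPM (median 94.7) in activated B6 cells, and from 33.9 to 127 CPM (median 67.0) and from 39.1 to 136 CPM (median 59.2) in NZB cells. All 4 groups overlapped. The log2 change of Slc2a3 was 0.40 in B6 cells (95% interval −0.17 to 0.97, adjusted p = 0.243, edgeR) and −0.16 in NZB cells (95% interval −0.75 to 0.43, adjusted p = 0.662). No call was made in any of the 35 other fits in either haplotype. Its spread in NZB cells was wide, with an SD of 46.6% of the mean at rest and 55.1% after activation, against 22.9% and 27.4% in B6 cells.

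Hk2 encodes hexokinase 2, the inducible enzyme that phosphorylates glucose on entry. Its counts were low, 3.13 to 10.6 CPM (median 4.49) in resting and 7.13 to 11.97 CPM (median 11.0) in activated B6 cells. In NZB cells it ranged from 0 to 12.5 CPM (median 4.46) at rest and from 6.01 to 12.9 CPM (median 9.97) after activation, the 0 being in the smallest library. The states overlapped in both haplotypes, in B6 cells through resting replicates 5 and 1 at 10.6 and 7.48 CPM, and in NZB cells through resting replicates 6 and 4 at 12.5 and 6.72 CPM. B6 replicate 5 and NZB replicate 6, the highest of each, held 4576 and 17740 CPM of neutrophil markers, with 251 to 6159 CPM in the other resting libraries, and the part of other cells in these values was not tested. Hk2 rose on activation in B6 cells by 0.85 on the log2 scale (SE 0.30, adjusted p = 0.0238, edgeR), whereas DESeq2 gave an adjusted p of 0.0648. That call was also lost without resting B6 replicate 2, 3 or 4 (adjusted p = 0.0579, 0.0518 and 0.0561, edgeR). Blocks of libraries with the same label number gave 0.84 and lost it too (adjusted p = 0.0966, edgeR). The log2 change was 1.44 with the library set as a term (adjusted p = 0.0018, edgeR) and 1.17 without resting B6 replicate 5 (adjusted p = 0.00304). In NZB cells its log2 fold change was 0.54 (SE 0.34, adjusted p = 0.182, edgeR). Over the 21 libraries it rose there by 1.01 (adjusted p = 0.0146), so that 9 members rose in B6 and 8 in NZB cells (23.8% and 24.5% of all genes), and without resting replicate 6 by 0.90 (adjusted p = 0.0245). The difference between the responses was −0.31 over all libraries (95% interval −1.24 to 0.62, adjusted p = 0.809, edgeR) and 0.17 over the 21, so its sign depended on the libraries used.

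Gpi1 encodes glucose-6-phosphate isomerase, which makes fructose 6-phosphate. It ranged from 272 to 324 CPM in resting and from 416.5 to 514 CPM in activated B6 cells (medians 307 and 488). In NZB cells it ranged from 220 to 396 CPM and from 412 to 721.5 CPM (medians 284 and 499). The states did not overlap in either haplotype. Gpi1 rose by 0.67 in B6 cells (SE 0.12, adjusted p = 7.71e-05, edgeR) and by 0.79 in NZB cells (SE 0.13, adjusted p = 1.12e-05). It was the smallest rise among the 7 members called in both haplotypes, and the interval in B6 cells, 0.42 to 0.93, did not reach 1.

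Aldoa encodes aldolase A, which splits fructose 1,6-bisphosphate into the 3-carbon sugar phosphates that triose-phosphate isomerase, the product of Tpi1, interconverts. Aldoa ranged from 274 to 400 CPM in resting and from 1103 to 1413 CPM in activated B6 cells (medians 363 and 1217), and from 327 to 525 CPM and from 835 to 1570 CPM in NZB cells (medians 378 and 1249). It rose 3.47-fold in B6 cells (log2 1.80, SE 0.14, adjusted p = 2.56e-10, edgeR) and 3.11-fold in NZB cells (1.64, SE 0.15, adjusted p = 1.84e-09). The highest resting value, 525 CPM, was that of the smallest library and stood on 31 counts.

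Tpi1 had the largest rise of the 10 in both haplotypes. It ranged from 63.1 to 130 CPM in resting and from 392 to 644 CPM in activated B6 cells (medians 79.9 and 516), and from 54.7 to 119 CPM and from 369 to 632 CPM in NZB cells (medians 64.9 and 516). The lowest activated library thus lay well above the highest resting one in both. Tpi1 rose by 2.58 in B6 (SE 0.19, adjusted p = 6.54e-11, edgeR) and by 2.91 in NZB cells (SE 0.20, adjusted p = 2.36e-11) on the log2 scale. The 95% intervals of Tpi1, 2.19 to 2.97 and 2.49 to 3.32, overlapped those of Pgam1, 1.42 to 3.21 and 1.48 to 3.67, so the order of these genes is not settled, and they lay above those of Gpi1, Aldoa, Eno1, Pkm and Ldha.

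Pgam1 encodes the phosphoglycerate mutase that moves the phosphate group of 3-phosphoglycerate, and Eno1 encodes enolase 1, which makes phosphoenolpyruvate. Pgam1 had only 237 UMI counts over the 24 libraries, 0 to 2.13 CPM in resting and 3.57 to 7.13 CPM in activated B6 cells, and 0 to 1.12 CPM and 0 to 8.18 CPM in NZB cells. The single activated library at 0 was replicate 1, and the states overlapped in NZB cells through it. That library was small, with 641467 counts, and 3 counts there were worth 4.68 CPM before scaling. Its 0 may thus lie anywhere up to that level, and the overlap is not settled. Pgam1 rose by 2.32 (SE 0.43, adjusted p = 0.000105, edgeR) and by 2.57 (SE 0.53, adjusted p = 0.000247). Of the 75-base windows in its last 1000 bases, 94.6% have an identical copy elsewhere in the genome, so its reads may be divided with or lost to those copies, and its level is uncertain. Eno1 ranged from 120 to 167 CPM in resting and from 398 to 690 CPM in activated B6 cells (medians 147.5 and 498), and from 116 to 136.5 CPM and from 462 to 724 CPM in NZB cells (medians 133 and 567). It rose by 1.84 in B6 cells (SE 0.12, adjusted p = 1.48e-11, edgeR) and by 2.17 in NZB cells (SE 0.13, adjusted p = 2.08e-12). The difference between its responses, 0.33, did not pass the test (95% interval −0.03 to 0.68, adjusted p = 0.392, edgeR).

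Pkm encodes the muscle type of pyruvate kinase, whose M1 and M2 forms come from 1 gene by splicing and are not told apart by counts at the 3′ end. It ranged from 655 to 901 CPM in resting and from 2073 to 3275 CPM in activated B6 cells (medians 811 and 2599), and from 525 to 969 CPM and from 2141 to 3285 CPM in NZB cells (medians 798 and 2649). It rose 3.39-fold and 3.34-fold (log2 1.76 and 1.74, SE 0.14 and 0.15, adjusted p = 4.12e-10 and 5.71e-10, edgeR). Ldha, the A subunit of lactate dehydrogenase, ranged from 442.5 to 689 CPM in resting and from 1578 to 2601 CPM in activated B6 cells (medians 563 and 2073), and from 482 to 677 CPM and from 1847 to 2724 CPM in NZB cells (medians 597 and 2035). It rose 3.64-fold and 3.76-fold (log2 1.87 and 1.91, SE 0.14 in both, adjusted p = 9.90e-11 and 7.77e-11, edgeR). Neither gene's states overlapped in either haplotype.

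**Figure D4:**
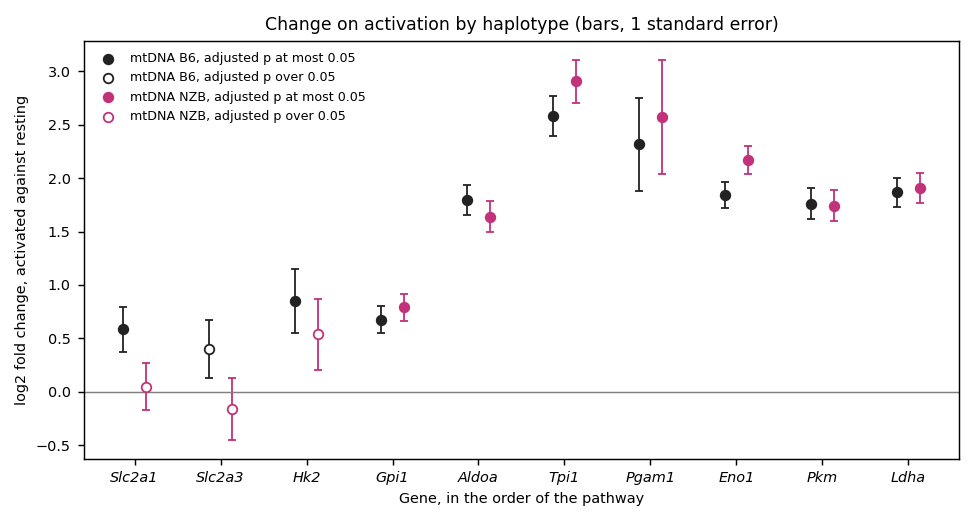
Log2 fold change on activation (vertical axis) of the 10 genes, in the order of the pathway, in B6 (black) and NZB (pink) cells, with bars of 1 SE and open points for an adjusted p over 0.05. Slc2a1, Slc2a3, Hk2 and Gpi1 lie between −0.16 and 0.85, and the 6 genes from Aldoa to Ldha between 1.64 and 2.91.

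The share of 75-base windows with an identical copy elsewhere was 58.2% for Eno1, 31.1% for Pkm, 16.0% for Tpi1 and 1.9% for Gpi1, and 0% for Slc2a1, Slc2a3, Hk2, Aldoa and Ldha. For the last 5 no copy of at least 95% identity was found either. The 15 annotated retrocopies named after members held 148 UMI counts in all, of which 133 were in the copy of Gpi1, against 408058 counts in the members. Of these 15, 0 were copies of Eno1 or Pkm, for which the search found 4 and 1 copies elsewhere. The sum of 148 thus does not cover all copies. Within the last 1000 bases Aldoa overlaps the protein-coding Gm57854 on the same strand, Tpi1 overlaps Spsb2 on the opposite strand, and Slc2a1, Pkm and Ldha overlap Gm12868, Gm69525 and Gm39011. How reads of such pairs were divided cannot be told from the counts.

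Between the haplotypes 0 of the 10 genes passed the test at rest, where 2.76% of all genes tested did (292 of 10566, edgeR). Slc2a1 was the 1 member with an unadjusted p under 0.05, where 2196 of all 10566 genes tested had one, and DESeq2 called 0 members. Differences at rest ran from −0.57 (Pgam1) to 0.74 (Slc2a1), with a median of 0.04. For Aldoa, Eno1, Pkm and Ldha the 95% intervals were −0.21 to 0.37, −0.44 to 0.08, −0.25 to 0.33 and −0.24 to 0.33, so a difference of more than 0.44 in size lies outside them. In activated cells 0 of the 10 passed in edgeR, where 0.0% of all genes did (327 genes had an unadjusted p under 0.05), 0 members had an unadjusted p under 0.05 and DESeq2 called 0. The differences ran from −0.32 (Pgam1) to 0.20 (Slc2a1), and their intervals for Gpi1, Aldoa, Eno1, Pkm and Ldha lay within −0.36 and 0.39.

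The response to activation did not differ detectably between the haplotypes for any member. In edgeR 0 of the 10 passed, where 0.0% of all genes did (1512 genes had an unadjusted p under 0.05), 0 members had an unadjusted p under 0.05, and DESeq2 called 0 members. The differences, NZB minus B6, ran from −0.56 (Slc2a3) to 0.33 (Eno1), with a median of 0.01. Slc2a1 and Hk2 passed on activation in B6 cells and not in NZB cells over all libraries, a contrast the test of the difference did not bear out. Their intervals for the difference were wide, from −1.17 to 0.09 and from −1.24 to 0.62, whereas those of Aldoa, Pkm and Ldha ran from −0.57 to 0.25, from −0.43 to 0.39 and from −0.35 to 0.44.

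The libraries fell into 3 sets of 8 by the number of reads per UMI (1.88 to 1.96, 2.11 to 2.24 and 2.68 to 2.80), and each set drew different numbers from the 4 groups. Set 1 held 5 of the 6 activated and 0 of the resting B6 libraries. Within set 2, 1 activated B6 library stood above 4 resting ones by 0.71 to 2.95 in log2 CPM for Gpi1, Aldoa, Tpi1, Eno1, Pkm and Ldha. In NZB cells the corresponding differences of the means for these 6 genes were 1.03 to 3.09 in set 1 (2 activated and 1 resting library), 0.63 to 2.90 in set 2 (2 and 1) and 0.92 to 2.76 in set 3 (2 and 4). With the set as a term in the fit, 9 members rose in B6 cells and 8 in NZB cells, Hk2 being added there (0.85, adjusted p = 0.0186, edgeR). The share of all genes called in that fit is not given, so these counts describe the members alone.

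Within groups the enzymes varied together to a moderate degree. Over 24 libraries, after each group's mean of log2 CPM was removed, the 15 pairs among Gpi1, Aldoa, Tpi1, Eno1, Pkm and Ldha had correlations from 0.07 to 0.68 with a median of 0.39, and over the 21 libraries from 0.18 to 0.85 with a median of 0.57. Pkm with Ldha stood at 0.58 and 0.85 in the same sets. The 12 pairs of a transporter with one of these enzymes had a median of 0.25 and 0.41. These points share their libraries, depth and scaling, and are given as a description.

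Among the other genes of glucose metabolism, 38 of 66 listed genes were tested. Of these, B6 cells had 11 that rose and 10 that fell, NZB cells 14 and 7 (edgeR, adjusted p of at most 0.05, where 22.4% and 25.2% of all genes rose and 24.5% and 28.4% fell). Among 12 other glycolytic enzymes, at rest 1 was lower in NZB than in B6 cells and 0 were higher (edgeR), where 2.76% of all genes passed. On activation the rises and falls of these 12 were 6 and 3 (B6) and 7 and 3 (NZB). The largest rises were those of Aldoc, the brain type of aldolase (log2 2.28 in B6 and 2.33 in NZB cells), Pgk1, phosphoglycerate kinase (2.15 and 2.63), and Gapdh, glyceraldehyde-3-phosphate dehydrogenase (1.85 and 2.75). Every 75-base window of Gapdh and 92.2% of those of Pgk1 have an identical copy elsewhere, so their counts are uncertain, and Gapdh ran from 7.61 to 663 CPM among the resting B6 libraries and from 0 to 580 CPM among the resting NZB libraries. The falls were those of Pklr, the pyruvate kinase of liver and red cells (−6.92 and −5.34, with 0 to 0.509 CPM in the activated libraries of either haplotype), Hk3, a hexokinase known from myeloid cells (−3.43 and −2.89), and Ldhb, the B subunit of lactate dehydrogenase (−0.91 and −0.62). The erythroid, neutrophil and myeloid sums fell between the same states, from medians of 1361, 1886 and 1581 CPM to 26.4, 3.48 and 37.4 CPM in B6 cells and from 238, 576 and 903 CPM to 33.2, 38.1 and 62.4 CPM in NZB cells. These sums thus also differed at rest between the haplotypes by median. Their part in the falls of Pklr and Hk3, and in the 1 haplotype difference at rest among these enzymes, was not tested.

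Of 5 tested genes of other glucose transporters and lactate export, 2 rose and 0 fell in each haplotype. Slc16a3 encodes the lactate exporter MCT4. It ranged from 13.2 to 53.4 CPM in resting and from 119 to 240 CPM in activated B6 cells, and from 12.4 to 69.1 CPM and from 78.0 to 248 CPM in NZB cells. It rose 5.81-fold and 5.76-fold (log2 2.54 and 2.53, SE 0.38 and 0.42, adjusted p = 7.49e-06 and 1.55e-05, edgeR). Bsg, basigin, the chaperone that carries such exporters to the membrane, rose by 0.87 and 1.14. For both genes the states did not overlap in either haplotype.

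Regulators of glycolysis, 10 tested, had 2 rises and 3 falls in B6 cells and 1 rise and 3 falls in NZB cells. Pdk3, a kinase that restrains pyruvate dehydrogenase, rose by 1.39 and 1.17. Hif1a, the subunit of HIF-1 that is stabilised in low oxygen, rose in B6 cells by 1.56 (SE 0.32, adjusted p = 0.000314, edgeR) and not detectably in NZB cells, and the difference between the responses, −1.07, did not pass the test (unadjusted p = 0.0309, adjusted p = 0.304). Pfkfb4, which sets the level of the glycolytic activator fructose 2,6-bisphosphate, fell by 1.57 in B6 cells and fell also in NZB cells (log2 change −1.55). Txnip, an inhibitor of glucose uptake, fell by 0.74 and 1.10. Myc fell in B6 cells by 0.79, and Arrdc4, a relative of Txnip, fell in NZB cells by 1.03.

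The pentose phosphate pathway branches from glucose 6-phosphate. Of its 8 genes 0 rose and 2 fell in B6 cells, Rpia by 0.37 and Taldo1 by 0.32, and 3 rose and 0 fell in NZB cells, Rpe by 0.77, Tkt by 0.67 and Pgls by 0.42. For 0 of the 8 did the response differ between haplotypes (edgeR), with 3 at an unadjusted p under 0.05 and differences of 0.23 to 0.48. At rest 0 of the 8 differed between haplotypes (edgeR), with 5 at an unadjusted p under 0.05 and NZB minus B6 differences of −0.45 to −0.17. Over all 10566 genes tested, 1512 had an unadjusted p under 0.05 for the response and 2196 at rest (edgeR). Of 3 tested genes of gluconeogenesis, Pcx, pyruvate carboxylase, rose by 1.22 and 1.34 from a low level. Pck2, the mitochondrial phosphoenolpyruvate carboxykinase, fell by 0.92 and 0.45, and G6pc3, a glucose-6-phosphatase, fell by 0.44 in B6 cells. Of the 28 listed genes that were not tested 11 had no count in any library, and the transporter gene Slc16a1, which encodes the lactate carrier MCT1, had 9 counts in all.

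**Figure D5:**
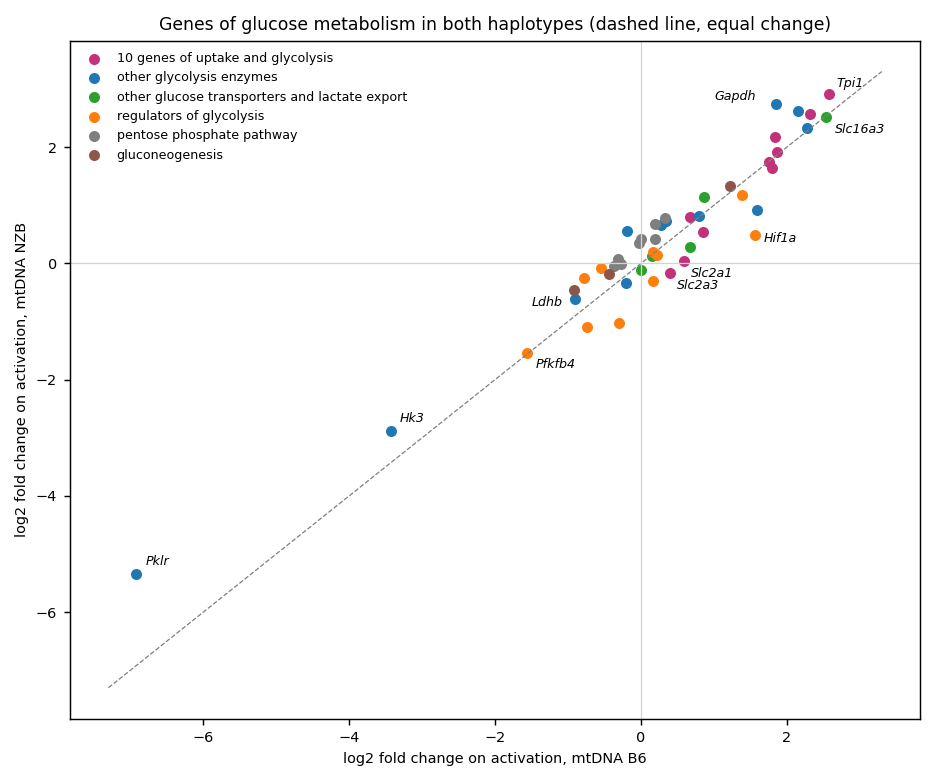
Log2 fold change on activation in B6 (horizontal axis) and NZB cells (vertical axis) for 48 tested genes of glucose metabolism, coloured by list, with a dashed line of equal change. Tpi1 lies at 2.58 and 2.91 and Slc16a3 at 2.54 and 2.53, at the upper right, and Pklr at −6.92 and −5.34 and Hk3 at −3.43 and −2.89, at the lower left.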

How the data were processed

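RNA of splenic Tconv CD4+ cells was measured in 24 libraries by a bulk MARS-seq protocol, which reads the 3′ end of polyadenylated RNA. The RNA kit and the RNA input are given differently in the labels and in the study's methods. Before deposit the authors trimmed reads with cutadapt, dropped those under 30 bases, mapped the rest with STAR to regions of 1000 bases at 3′ ends in GRCm39 (Ensembl 106), counted them per gene with htseq-count, kept each UMI once and corrected for saturation. They used DESeq2 for their own tests. The deposited counts are whole numbers per gene that are not scaled. A second deposited table holds larger counts. Its step is not described, and it was read here as counts before UMIs were merged, both for reads per UMI and as an alternative. Strand is not named for the counting. 1 column of per-sample values matched no sample and was not used.

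Counts were scaled by TMM, filtered with filterByExpr and fitted over 4 groups with edgeR 4.0.16 (quasi-likelihood test, R 4.3.3), with Benjamini-Hochberg adjustment over 10566 genes. Genes with an adjusted p up to 0.05 were called, and a second rule also asked for a log2 fold change of at least 1. Standard errors are the log2 fold change divided by the square root of F, and 95% intervals use the test's degrees of freedom. CPM values are TMM scaled. Floors and the value of 1 count cover counting error only. Correlations used log2 CPM with a prior count of 2. Symbols, positions, promoters and copies came from GRCm39 with GENCODE annotation, by Python 3.11.15 and a search of 75-base windows, and the fits were tested on simulated data.

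The 10 members, the lists of other pathway genes and the markers were chosen with earlier results of these data known. Named are all members and, per list and haplotype, the 3 largest called rises and falls. Besides the T cell, neutrophil, erythroid and myeloid markers, 7 further marker lists were summed. Their median summed CPM at rest and after activation in mtDNA B6 cells was 370 and 858 for activation, 68.6 and 277 for CD8 T cells, 157 and 491 for Treg cells, 401 and 502 for B cells, 1131 and 37.3 for granulocyte precursors, 8.25 and 2.04 for NK cells and 14.6 and 140 for platelets. In mtDNA NZB cells, in the same order, it was 407 and 949, 51.9 and 164.5, 161.5 and 618, 529 and 445, 275 and 32.3, 9.29 and 0.955, and 16.4 and 97.8. The 3 Treg markers did not move together. On the log2 scale Tnfrsf18 changed by 1.79 (B6) and 1.75 (NZB), Ikzf2 by −0.88 and −0.55, and Foxp3 by 0.01 and 0.67. Alternatives were DESeq2 1.42.0, median-of-ratios factors, no filter, a filter of 5 CPM in 6 libraries, the second table, 21 libraries, replicate blocks, 12 libraries at a time, the library set as a term, thinning to 641467 counts and each library left out.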

Additional observations from a re-analysis of the deposited data

Results flagged for a closer look

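Of 40 sets of 6 values (10 genes in 4 groups), 4 held a library that stood apart from the other 5 by Dixon's test at 95%, a test that by chance flags about 1 set in 20. All 4 were resting libraries. Slc2a1 stood at 246 CPM in resting mtDNA NZB replicate 5 (537 counts), where the others lay between 84.7 and 120 CPM, and without it the haplotype difference at rest was 0.41 in place of 0.74 (log2). Aldoa stood at 274 CPM in resting mtDNA B6 replicate 1 (1099 counts), under the 361 to 400 CPM of the others, and at 525 CPM in resting mtDNA NZB replicate 2, on 31 counts, above 327 to 386 CPM. Tpi1 stood at 130 CPM in resting mtDNA B6 replicate 5 (735 counts), above 63.1 to 85.8 CPM. Neutrophil markers summed to 3240, 1863 and 4576 CPM in the libraries of the Aldoa and Tpi1 values, and to 251 CPM in that of Slc2a1. The largest such sums, 17740 and 6159 CPM, were in resting mtDNA NZB replicate 6 and mtDNA B6 replicate 6. Aldoa stood there at 382 and 361 CPM and Tpi1 at 94.8 and 85.8 CPM. The part of other cells in the flagged values was not tested.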

How the results depend on the processing

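Of 4353 values of single genes under an alternative, 124 changed sign, all of them values called in neither fit. Gpi1, Aldoa, Tpi1, Pgam1, Eno1, Pkm and Ldha rose in both haplotypes in every fit that tested them. The number of members called on activation ran from 6 to 9 in mtDNA B6 and from 6 to 8 in mtDNA NZB cells over all alternatives, and from 7 to 9 and from 7 to 8 with single libraries left out, the 7 in mtDNA B6 cells being without resting replicate 4. At rest 1 member differed between haplotypes over the 21 libraries, and 0 to 1 with single libraries left out. Shares of all genes called are given here only for the fit of 4 groups over all 24 libraries and that over 21. Counts from the other fits therefore describe the members alone. Of the other pathway genes, 16 fell in mtDNA B6 cells with no filter and 3 with the fold rule, 7 rose in mtDNA NZB cells with the fold rule, and 4 fell there in the fit of 12 libraries. With single libraries left out these counts ran from 10 to 12 rises and 8 to 10 falls in mtDNA B6 cells, and from 14 to 16 rises and 5 to 8 falls in mtDNA NZB cells. The median correlation of the 45 pairs of members was 0.303 over 24 libraries and 0.407 over 21. The cause of these shifts was not tested, save that the fold rule is stricter by construction.

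The study divided isolated cells between the states, so the numbers in the labels may stand for mice. A check by correlation did not settle this. Of 9 pairs with the same label number 3 correlated over 0.1 (−0.20 to 0.30 over 7748 genes), and 3, all of mtDNA B6 cells, correlated best with their own number. In the fit that took the label number for a replicate block, 7 members rose in each haplotype, without Slc2a1 (0.42, adjusted p = 0.0883, edgeR) and Hk2 (0.84, adjusted p = 0.0966) in mtDNA B6 cells, and 4 of the other pathway genes fell in mtDNA NZB cells. That block could not give the comparisons between haplotypes, which lie between its numbers. With the title number as an added term 9 and 7 members rose. That term joins libraries of both haplotypes under 1 number, so it does not pair the states within a mouse.

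After thinning to 641467 counts Hk2 and Pgam1 did not pass the filter, and 7 members rose in mtDNA B6 and 6 in mtDNA NZB cells.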

Other observations

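Gapdh was nearly absent from some resting libraries and abundant in others of the same group. In resting mtDNA B6 cells it held 23 UMI counts in replicate 2 (7.61 CPM) and between 1283 and 3194 counts in the other 5 replicates (502 to 663 CPM). In resting mtDNA NZB cells it held 15, 0 and 29 counts in replicates 1, 2 and 6 (5.01, 0 and 11.6 CPM) and 1286, 1459 and 1265 counts in replicates 3, 4 and 5 (432, 408 and 580 CPM). The second count table showed the same split, with 57 counts in resting mtDNA B6 replicate 2 and 24, 0 and 65 in resting mtDNA NZB replicates 1, 2 and 6. In the 12 activated libraries Gapdh ran from 1305 to 2162 CPM. The libraries with few Gapdh counts came from sets 2 and 3 of reads per UMI, which also held resting libraries with many. Set 1 held only 1 resting library, so this says little about the sets. The cause was not tested.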
